A study of Mus musculus with 4 samples.

Results

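The 7 genes described here encode 4 CXC chemokines that attract neutrophils (Cxcl1, Cxcl2, Cxcl3 and Cxcl5), their receptor (Cxcr2), and the cytokine G-CSF with its receptor (Csf3 and Csf3r). They were picked by name, with earlier results of these data known, out of 17574 genes with a symbol. Their difference between anti-CD71 and control tumours is therefore given as a description, with no test. Tests are given for other genes of the same pathway. The lists of those genes were also chosen with earlier results known, so their p-values and counts carry the same limit.

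The tumours came from SCC7 cells, a transplantable mouse squamous carcinoma line used as a model of head and neck cancer, placed under the dorsal skin of wild-type C3H/HeN mice. Mice of the anti-CD71 group received an antibody against the transferrin receptor on days 6 and 9, and 2 libraries were made from their tumours on day 10. The control group gave 2 libraries from tumours of the same day, and the labels name no control antibody or dose. The labels do not say whether the 2 libraries of a group came from separate mice. The p-values therefore measure only spread between libraries, which may be technical. For tests with a single treated library, that spread is between the 2 controls alone and borrows from a trend over all tested genes. The values are TPM, a transcript abundance corrected for length and scaled to a fixed total per library, so sequencing depth cannot be read from them.

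For anti-CD71 replicate 1 the listing used here breaks off after 13586 of 59881 transcripts, or 22.7% of them. Transcripts beyond the break are missing, not 0. Cxcl2 and Cxcl5 were listed in full for all 4 libraries. For Cxcr2, a transcript with 86.2% of its TPM was listed for all 4, and for Csf3r only 2 transcripts with 12.5%. Cxcl1, Cxcl3 and Csf3 were listed for 3 libraries, so anti-CD71 replicate 2 is the one treated library behind their values.

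CXC chemokines are small secreted proteins named for a pair of cysteines with 1 residue between them. Those treated here bind CXCR2, a G protein-coupled receptor on neutrophils, and guide these cells out of blood vessels towards a source of inflammation. They are made on demand by macrophages, epithelial cells and fibroblasts after interleukin-1, TNF or bacterial products activate NF-kappa-B. G-CSF acts through its own receptor to drive the production, release and survival of neutrophils.

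The RefSeq promoter table for GRCm38.p6 holds 5 of the 7 genes, with Cxcl5 and Csf3 not among them. The 150 bases before the annotated start are shown for Cxcl1, Cxcl2 and Cxcl3, the ligand genes with the widest gap between treated and control libraries, and for both receptor genes, Cxcr2 and Csf3r, to set beside them. The table's start for Csf3r lies inside the annotated gene. All lie on the plus strand. Capitals mark matches, on either strand, to the consensus of the NF-kappa-B site.
Cxcl1, chr5:90891095-90891244: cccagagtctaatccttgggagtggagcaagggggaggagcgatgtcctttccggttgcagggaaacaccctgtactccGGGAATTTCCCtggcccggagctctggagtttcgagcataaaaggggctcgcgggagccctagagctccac
Cxcl2, chr5:90903749-90903898: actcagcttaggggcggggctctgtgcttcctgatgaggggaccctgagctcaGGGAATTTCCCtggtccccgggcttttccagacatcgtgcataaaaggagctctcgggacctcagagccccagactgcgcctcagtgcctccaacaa
Cxcl3, chr5:90785951-90786100: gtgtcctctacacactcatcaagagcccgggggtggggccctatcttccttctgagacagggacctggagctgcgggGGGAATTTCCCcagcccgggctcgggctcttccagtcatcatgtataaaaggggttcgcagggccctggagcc
Cxcr2, chr1:74153844-74153993: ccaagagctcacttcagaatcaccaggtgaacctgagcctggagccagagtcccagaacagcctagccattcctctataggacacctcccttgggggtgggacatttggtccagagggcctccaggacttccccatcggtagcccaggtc
Csf3r, chr4:126024509-126024658: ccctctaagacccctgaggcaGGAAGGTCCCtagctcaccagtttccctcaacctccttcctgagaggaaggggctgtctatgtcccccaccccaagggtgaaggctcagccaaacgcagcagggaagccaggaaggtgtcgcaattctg

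Each of the 3 ligand windows holds 1 marked stretch, in which a match on the plus strand overlaps one on the minus strand. The Csf3r window holds 1 match, on the minus strand and 129 bases before the start, and the Cxcr2 window holds none. A match was found in 4.6% of 32851 promoter entries over the same 150 bases. The stretch is also the longest run of letters that the 3 ligand windows share, the 11 bases GGGAATTTCCC, which begin 71 bases before the start in Cxcl1, 97 in Cxcl2 and 73 in Cxcl3. That run occurs in 10 of the 32851 entries, or 0.0304%. The consensus and the run were chosen after the windows had been read, and genes of 1 cluster may share letters by descent. No match to TGANTCA (AP-1) or TTGCNNAA (C/EBP), on either strand, was found in these 5 windows, against 4.24% and 5.46% of the entries. The exact letters TATAAA were found in Cxcl3 alone of the 5, 30 bases before the start, and in 7.57% of the entries. The Cxcl1 and Cxcl2 windows hold CATAAA, which differs in its first letter only and was not searched for.

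Cxcl1, Cxcl2 and Cxcl3 were each several times higher in anti-CD71 replicate 2 than in the controls. Cxcl1, the mouse chemokine first called KC, stood at 71.6 TPM in anti-CD71 replicate 2, against 10.76 and 12.41 TPM in the controls. The treated library was 6.18 times the control mean, a difference of 2.53 on the log2(TPM + 1) scale, where the controls had an SD of 0.13 (n = 2). Cxcl1 lies on chromosome 5 from 90891245 to 90893121 in GRCm38.p6, as annotated by RefSeq.

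Cxcl2, also called MIP-2, was listed in full for all 4 libraries. It stood at 52.18 and 29.73 TPM in anti-CD71 replicates 1 and 2, against 3.21 and 7.19 TPM in control replicates 1 and 2. Both treated libraries lay above both controls, and the lower treated value was more than 4 times the higher control value. The means were 40.96 ± 15.87 TPM in anti-CD71 tumours and 5.2 ± 2.81 TPM in controls (SD, n = 2 each), a log2(TPM + 1) difference of 2.78. With replicate 2 as the only treated library the difference was 2.39. It was 3.18 with replicate 1 alone.

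Cxcl3 had 12.32 TPM in anti-CD71 replicate 2, against 1.54 and 1.1 TPM in the controls, a log2(TPM + 1) difference of 2.53. The gene lies on chromosome 5 (90786101 to 90788093). Its transcript is listed under 2 IDs, with exactly the same TPM for each in every complete library, 6.16 TPM in anti-CD71 replicate 2 against 0.77 and 0.55 TPM in the controls. The 2 values were added. Whether they are equal shares of the signal or a repeat of the same signal cannot be told from them. With 1 of them alone, both controls would lie under 1 TPM and the gene would not meet the filter. Cxcl1, Cxcl2 and Cxcl3 resemble each other in sequence, and reads that fit several of them may have been split, so their separate levels are less certain than their sum.

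Cxcl5, known as LIX in mice and made mainly by epithelial cells and platelets, was close to the limit of what these libraries list. Its TPM were 2.39 and 2.05 in the anti-CD71 libraries, against 0 and 1.06 in the controls, again with both treated libraries above both controls. The log2(TPM + 1) difference was 1.16 over 4 libraries. It fell to 0.57 when anti-CD71 replicate 2 was set against control replicate 2 alone. Its transcript is also listed under 2 IDs, which carried unequal shares, with 0.67 and 1.72 TPM for anti-CD71 replicate 1 and 1.47 and 0.58 TPM for anti-CD71 replicate 2, against 1.06 and 0 TPM in control replicate 2.

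Csf3, the gene for G-CSF on chromosome 11 (98700183 to 98703631), was listed at 2.53 TPM in anti-CD71 replicate 2, against 0.16 and 0.17 TPM in the controls. Nearly all of it in the treated library was on the curated transcript, at 2.39 TPM against 0.04 and 0.17 TPM in the controls. The log2(TPM + 1) difference of 1.6 became 3.31 with a pseudocount of 0.1 TPM. A long non-coding gene, Gm38985, overlaps Csf3 in the annotation and was not analysed here. Whether the counting used strand is not given in the sources used here, so reads from the pair may not be told apart.

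**Figure D1:**
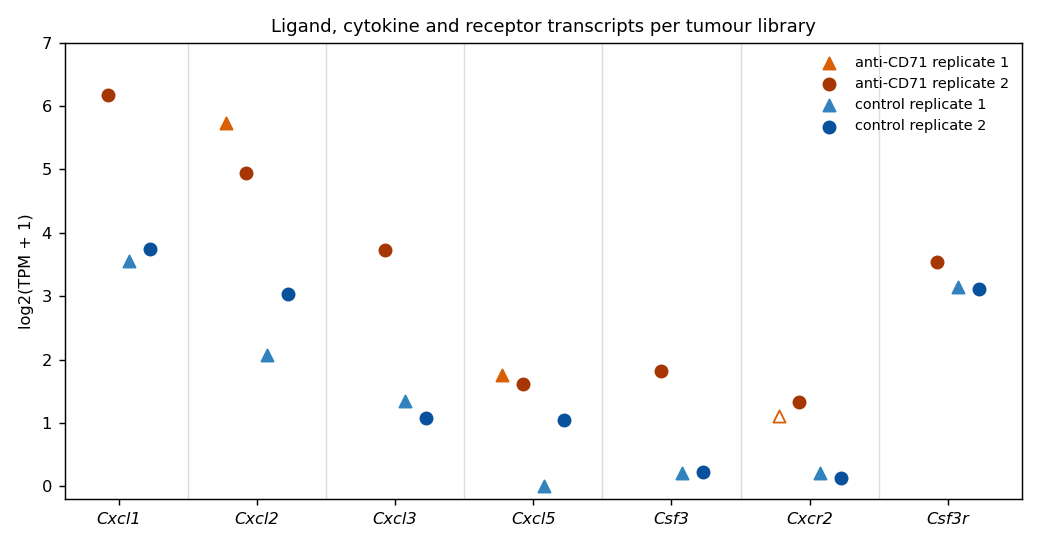
Level of each gene in each library as log2(TPM + 1), with both anti-CD71 libraries to the left of both controls. Anti-CD71 replicate 1 is drawn only for Cxcl2, Cxcl5 and, as an open triangle, for the Cxcr2 transcript that carries 86.2% of its TPM; the treated points of Cxcl2 lie at 52.18 and 29.73 TPM and its control points at 3.21 and 7.19 TPM.

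Both receptor genes were measured at low or middling levels, and they differed in how far the treated libraries stood from the controls. The curated Cxcr2 transcript stood at 1.16 TPM in anti-CD71 replicate 1, 1.5 TPM in anti-CD71 replicate 2 and 0 in both controls. Over all transcripts Cxcr2 had 1.5 TPM in anti-CD71 replicate 2, against 0.15 and 0.09 TPM in the controls, all of the control signal being on a predicted isoform. Cxcr2 lies on chromosome 1 (74153994 to 74161246). Its neighbour Cxcr1, the other receptor for this chemokine class, was listed at 0 in the 3 complete libraries.

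Csf3r, which neutrophils and other myeloid cells carry, had 10.58 TPM in anti-CD71 replicate 2, against 7.87 and 7.63 TPM in the controls. The log2(TPM + 1) difference was 0.40, the smallest of the 7 genes. Its TPM was spread over 21 transcripts, 19 of them predicted, and the highest held 2.83 TPM in anti-CD71 replicate 2 against 1.87 and 1.89 TPM in the controls. On the 2 transcripts listed for all 4 libraries, Csf3r had 0.68 and 1.09 TPM in the anti-CD71 libraries and 0.83 and 1.34 TPM in the controls, so the groups overlapped and the difference turned to -0.14. Csf3r lies on chromosome 4 (126023441 to 126044975), where the start of the gene overlaps the non-coding gene Gm32908, not analysed here.

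The order of the 7 levels differed between treated and control libraries. In anti-CD71 replicate 2 the ligand genes Cxcl1, Cxcl2 and Cxcl3 held ranks 1, 2 and 3 and Csf3r rank 4. In both controls Cxcl1 was followed by Csf3r, then by Cxcl2 and Cxcl3. Csf3r and Cxcl2 lay close together in control replicate 2, at 7.63 and 7.19 TPM, and differed more in control replicate 1, at 7.87 and 3.21 TPM, so their order among controls is within the spread of Cxcl2. Csf3, Cxcl5 and Cxcr2 filled ranks 5 to 7 in every complete library, in an order that differed between the controls. Cxcl1 exceeded 88.1% of all genes in anti-CD71 replicate 2, against 52.7% and 54.7% in the controls.

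The 4 ligands together summed to 115.7 TPM in anti-CD71 replicate 2, against 15.51 and 21.76 TPM in the controls. Cxcl1 contributed 61.9% of the ligand TPM in anti-CD71 replicate 2 and 69.4% and 57.0% in the controls, and Cxcl2 made up 25.7% in anti-CD71 replicate 2 and 20.7% and 33.0% in the controls. For both, the treated share lay between the control shares. The Cxcl3 share lay above both controls, at 10.6% in anti-CD71 replicate 2 against 9.9% and 5.1% in the controls, and the Cxcl5 share between them, at 1.8% against 0 and 4.9%.

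Anti-CD71 replicate 2 lay above both controls for all 7 genes. The same holds for 39.5% of the 11982 genes tested over 3 libraries, with 42.5% below both, and since results of this contrast were known when the genes were picked, nothing is read from the count. For 3 of the 7, Cxcl1, Cxcl2 and Cxcl3, the log2(TPM + 1) difference exceeded 2, as it did in 0.125% of the 11982 genes. That share includes these 3 genes themselves. It leaves out genes under 1 TPM in both controls, such as the keratin genes Krt5 and Krt14, so it may understate how common such differences were. Of the 7, 5 passed the filter of 1 TPM in 2 libraries, Csf3 and Cxcr2 falling short in the controls. Cxcl2 and Cxcl5, which alone of the 7 entered the comparison of 4 libraries, had both treated libraries above both controls, as had 28.3% of 1563 genes, while 31.1% had both below. For Cxcl2 that difference exceeded 2, as for 0.32% of the genes, Cxcl2 included. In bulk tumour RNA, more cells that express a gene and more RNA per cell cannot be told apart.

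**Figure D2:**
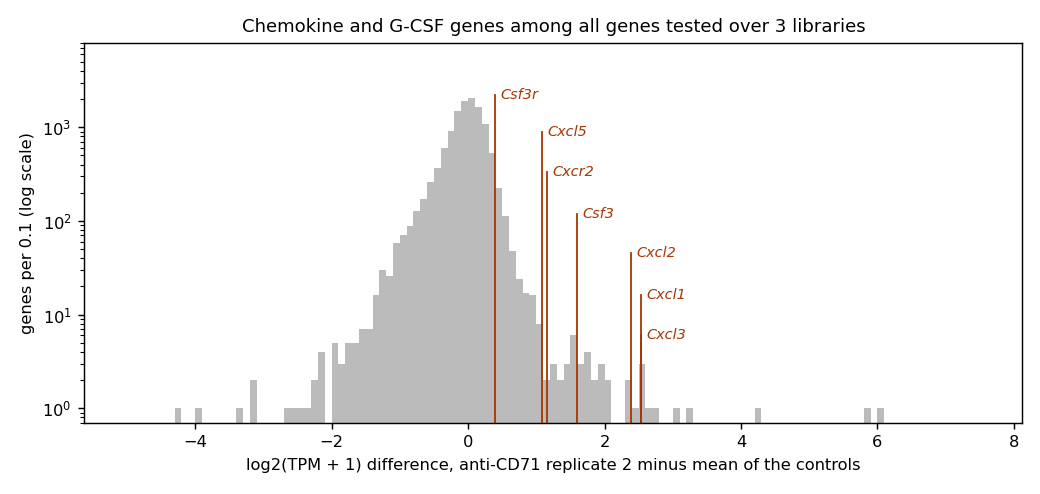
Histogram of log2(TPM + 1) differences, anti-CD71 replicate 2 minus the mean of both controls, for the 11982 genes tested over 3 libraries, with genes per bin on a log scale. Lines mark the 7 genes (their heights carry no value; Csf3 and Cxcr2 are drawn but were below the filter), from Csf3r at 0.40 inside the bulk of genes to Cxcl1 and Cxcl3 at 2.53 in its far right tail.

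The 4 ligand genes lie within 146641 bases on chromosome 5 (90759298 to 90905938), a stretch with 7 annotated genes, all CXC chemokines. Of the other 3, Cxcl15 was not analysed here. Ppbp, a platelet chemokine that also acts on CXCR2, had 4.8 TPM in anti-CD71 replicate 2, against 0.86 and 0.24 TPM in the controls, and was below the filter. Pf4, a platelet and macrophage chemokine that does not act through CXCR2, had the highest level of the stretch, with 183.58 TPM in anti-CD71 replicate 2 against 123.0 and 103.04 TPM in the controls. Its log2 difference of 0.70 did not pass the test (SE 0.12, adjusted p = 0.0572 by limma). Next to Cxcl2 but outside the chemokine stretch, the folate enzyme gene Mthfd2l had 11.75 TPM in anti-CD71 replicate 2, against 9.82 and 9.12 TPM in the controls (log2 difference 0.29, SE 0.11, adjusted p = 0.212). Next to Csf3, the Mediator subunit gene Med24 had a log2 difference of -0.04 (SE 0.09, adjusted p = 0.804). Next to Csf3r, the mitochondrial ribosome gene Mrps15 had one of 0.24 (SE 0.10, adjusted p = 0.214).

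**Figure D3:**
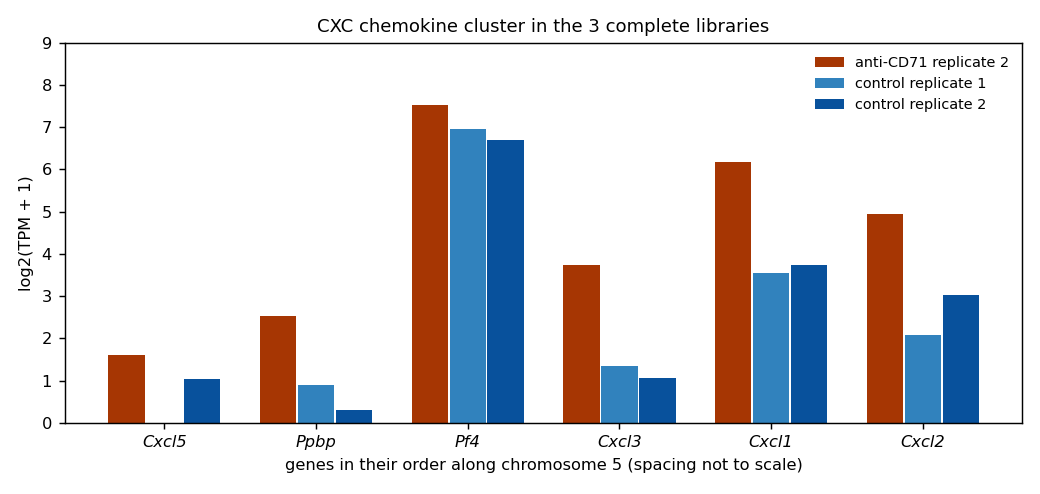
Level as log2(TPM + 1) of the 6 analysed genes of the chromosome 5 chemokine stretch, in chromosomal order, in anti-CD71 replicate 2 and both controls. Every treated bar is the highest of its gene, from 2.05 TPM for Cxcl5 to 183.58 TPM for Pf4, and Cxcl5 has no bar in control replicate 1, where it is listed at 0.

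Other genes of the pathway were taken from 8 lists that hold 123 genes, 120 of them matched. The lists were chosen with earlier results of these data known, so counts of calls within them are not an independent test. Over 3 libraries limma called 2 higher and 16 lower in anti-CD71 replicate 2 among 97 tested, with a median log2 difference of -0.20, against -0.01 over all 11982 genes. Of all genes 0.476% were called higher and 2.39% lower. These calls depended on the filter and on the variance model. With 1 TPM required in 1 library 0 of 102 were called (50 at an unadjusted p under 0.05), with no filter 0 of 120 (43 at an unadjusted p under 0.05), and without a trend in the variance prior 2 higher and 0 lower. Over 4 libraries limma called 0 higher and 4 lower among 17 tested (8 at an unadjusted p under 0.05), against 0.832% higher and 3.45% lower of 1563 genes. The number lower was 0 without control replicate 1, 0 without control replicate 2 and 2 without anti-CD71 replicate 2.

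Among cytokines that act upstream of these chemokines, with their receptors and adaptors, Il1b and Il1r2 were called higher in anti-CD71 replicate 2. The other 14 tested genes did not pass. Il1b, the gene for interleukin-1 beta, had 48.64 TPM in anti-CD71 replicate 2, against 12.21 and 10.63 TPM in the controls (log2 difference 2.00, SE 0.12, adjusted p = 0.00798 by limma). Il1r2, which encodes a decoy receptor that binds interleukin-1 without signalling and which neutrophils carry, rose to 6.87 TPM, against 0.9 and 1.18 TPM in the controls (1.95, SE 0.20, adjusted p = 0.0273). Il1r2 met the filter of 1 TPM in 2 libraries through anti-CD71 replicate 2 and control replicate 2. A treated value under 1 TPM would have left it untested, so a fall could hardly have been called. Il1b and Il1r2 were the calls among 16 tested genes of the list, of which 7 lay above 0 and 9 below. The TNF receptor gene Tnfrsf1a (-0.14, adjusted p = 0.357) and Il1rn (0.35, adjusted p = 0.207), for the interleukin-1 receptor antagonist, did not pass. Chosen after their values were seen, Tnf had 6.28 TPM in anti-CD71 replicate 2 against 7.92 and 8.32 TPM in the controls, and Il17a was listed at 0 in these 3 libraries. Chosen likewise, Il1a, Il6 and Il1f9 fell short of the filter and lay above both controls. They had 2.33, 1.73 and 2.05 TPM in anti-CD71 replicate 2, against at most 0.95 TPM in the controls. Il17f and Il17c, also short of the filter, were at most 0.2 TPM. Over 4 libraries neither Tlr2 (-0.41, adjusted p = 0.148) nor Osm (-0.17, adjusted p = 0.435) passed.

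Among the regulators that act between those cytokines and the chemokine genes 1 fell and the others did not pass. Of 20 genes for NF-kappa-B subunits, their inhibitors and factors that control chemokine mRNA decay, 1 was called, Cebpd, for a C/EBP transcription factor, which fell to 11.52 TPM in anti-CD71 replicate 2 against 23.81 and 30.38 TPM in the controls (log2 difference -1.16, SE 0.16, adjusted p = 0.0404). Nfkbia, an NF-kappa-B inhibitor gene that NF-kappa-B itself induces, had 120.41 TPM in anti-CD71 replicate 2 against 97.69 and 97.18 TPM in the controls and did not pass (0.30, adjusted p = 0.0985). Nfkb2 did not pass either (-0.12, adjusted p = 0.437). The list's median was -0.14. Over 4 libraries 0 of 4 were called by limma (Bcl3 at -0.23, adjusted p = 0.368, and Zc3h12a, which encodes an RNase that degrades cytokine mRNA, at -0.25, adjusted p = 0.3). The remaining genes were Rel at -0.27 (adjusted p = 0.173) and Tnfaip3 at 0.41 (adjusted p = 0.213).

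Among CXC ligands of other classes Cxcl16 fell and the others did not pass. Of 6 tested over 3 libraries, 3 lay above 0 and 3 below, with a median log2 difference of 0.02. Cxcl16, a membrane-bound ligand for CXCR6 on lymphocytes, fell to 48.32 TPM in anti-CD71 replicate 2 against 93.06 and 103.68 TPM in the controls (-1.01, SE 0.10, adjusted p = 0.0249). Cxcl12, the stromal ligand for CXCR4, had 463.9 TPM in anti-CD71 replicate 2 against 382.91 and 376.57 TPM in the controls and did not pass (0.29, adjusted p = 0.0807). Whether ligands of the 2 classes differed from each other was not tested.

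Among receptors for other chemoattractants, C5ar1 fell over 3 libraries and Ccr1 over 4. C5ar1, the 1 called of 10 tested over 3 libraries, is the receptor gene for complement C5a and stood at 22.21 TPM in anti-CD71 replicate 2 against 35.68 and 33.67 TPM in the controls (-0.62, SE 0.09, adjusted p = 0.0474). The scavenging receptor gene Ackr3 did not pass (0.17, adjusted p = 0.285). Over 4 libraries Ccr1, a receptor for CC chemokines on monocytes and neutrophils, fell to 30.11 and 34.49 TPM in anti-CD71 tumours against 52.04 and 47.49 TPM in controls (-0.61, SE 0.10, adjusted p = 0.0388). Over 3 libraries Ccr1 did not pass (-0.51). The formyl peptide receptor gene Fpr2, with 17.7 and 13.07 TPM in anti-CD71 tumours and 12.34 and 15.28 TPM in controls, overlapped between groups (0.14, adjusted p = 0.637).

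Of 20 tested genes through which CXCR2 signals in leukocytes, 5 fell in anti-CD71 replicate 2 and none of the 20 was called higher. In all 17 lay below 0, with a median log2 difference of -0.63, against -0.01 over all tested genes. None of the 5 falls was called over 3 libraries with either other filter or without the trend in the variance prior. Rac2, a GTPase of blood cells needed for neutrophil migration, had 25.66 TPM in anti-CD71 replicate 2 against 44.87 and 55.76 TPM in the controls (-0.94, SE 0.15, adjusted p = 0.0491). Pik3cg, the PI3-kinase gamma subunit activated by G proteins (-0.88, adjusted p = 0.0431), Dock2, a Rac activator (-0.85, adjusted p = 0.0293), and Fgr, a Src-family kinase (-0.80, adjusted p = 0.0316), fell too. Vav1, another Rac activator, fell in both comparisons, to 14.9 and 12.83 TPM in anti-CD71 tumours against 20.92 and 23.03 TPM in controls (-0.63 over 4 libraries, SE 0.11, adjusted p = 0.0442). The G protein genes Gnai2 (-0.20, adjusted p = 0.177) and Gnb1 (0.01, adjusted p = 0.949), expressed in most cells, did not pass, and neither did Grk2 over 4 libraries (-0.19, adjusted p = 0.18).

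Adhesion genes that carry leukocytes across the vessel wall showed 5 falls among 11 tested and no rise. Itgal (-1.27, adjusted p = 0.0339), Itgam (-0.81, adjusted p = 0.0288) and Itgb2 (-0.73, adjusted p = 0.0288) encode subunits of the leukocyte integrins. Selplg encodes the P-selectin ligand (-0.95, adjusted p = 0.0288) and Fermt3 an integrin activator (-0.79, adjusted p = 0.0288). Cd44 (0.31, adjusted p = 0.111) and the endothelial ligand gene Vcam1 (-0.08, adjusted p = 0.577) did not pass.

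On the G-CSF side, 1 of 10 tested signalling genes was called, the phosphatase gene Ptpn6, at 36.81 TPM in anti-CD71 replicate 2 against 62.08 and 74.78 TPM in the controls (-0.87, SE 0.13, adjusted p = 0.0474). All 10 lay below 0, with a median log2 difference of -0.36, against -0.01 over all tested genes. Stat3, the main transcription factor downstream of the G-CSF receptor (-0.30, adjusted p = 0.11), and Jak1 (-0.13, adjusted p = 0.354) did not pass, nor did Stat5b over 4 libraries (-0.12, adjusted p = 0.501). Among other colony-stimulating factors and receptors, Csf1r and Csf2rb2 fell over 4 libraries. Csf1r had 69.38 and 66.83 TPM in anti-CD71 tumours against 125.77 and 156.93 TPM in controls (-1.03, SE 0.11, adjusted p = 0.032). Csf2rb2 had 5.76 and 5.47 TPM in anti-CD71 tumours against 9.74 and 8.95 TPM in controls (-0.64, SE 0.10, adjusted p = 0.0388), but over 3 libraries it did not pass (-0.68). Csf2rb, for the receptor subunit shared by GM-CSF, interleukin-3 and interleukin-5, fell in anti-CD71 replicate 2 (-0.71, adjusted p = 0.049). The macrophage growth factor gene Csf1 had 280.28 TPM in anti-CD71 replicate 2 against 304.78 and 264.0 TPM in the controls (-0.02, adjusted p = 0.934). Chosen after its values were seen, Csf2, the gene for GM-CSF, stood at 0.16 TPM in anti-CD71 replicate 2 against 0.17 TPM in each control.

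**Figure D4:**
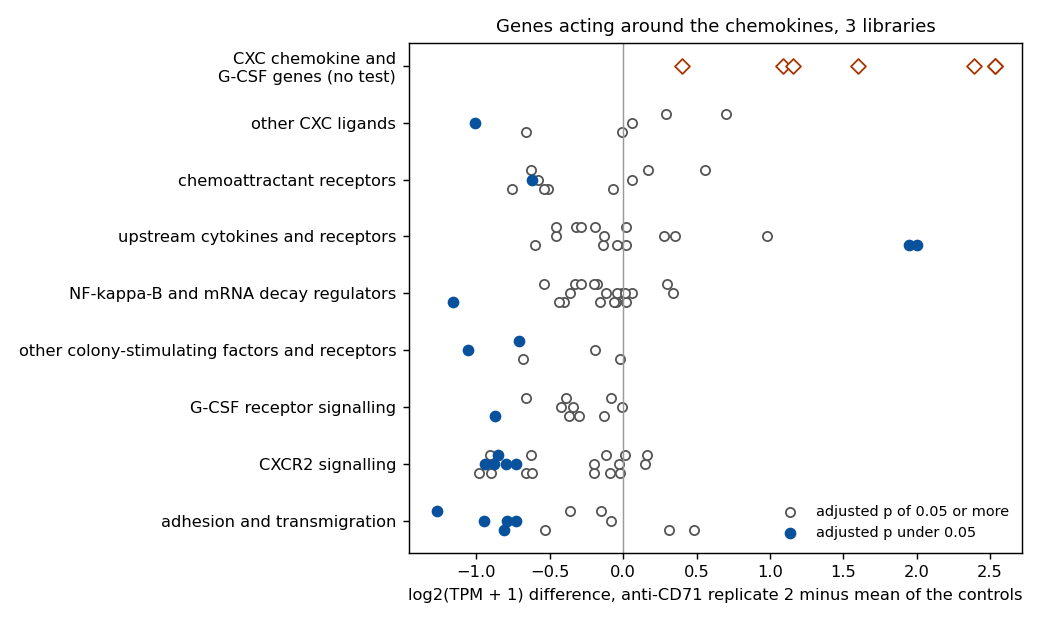
Log2(TPM + 1) differences, anti-CD71 replicate 2 minus the mean of both controls, for each tested gene of the 8 lists, with filled points at an adjusted p under 0.05 by limma, and untested diamonds for the 7 genes described first. Il1b and Il1r2 are the filled points on the right, at 2.00 and 1.95, and the other 16 filled genes lie between -1.27 and -0.62.

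Markers of several cell types also differed between anti-CD71 and control libraries, some higher and some lower. The marker lists were likewise chosen with earlier results of these data known. Of 21 matched neutrophil markers, 10 were tested over 3 libraries, and S100a8, S100a9 and Hp rose while Ctsg fell. S100a8 and S100a9, which neutrophils and inflamed keratinocytes both make, together held 478.48 TPM in anti-CD71 replicate 2 against 8.89 and 3.29 TPM in the controls, and the other 19 markers summed to 224.95 TPM against 145.0 and 176.87 TPM. No neutrophil marker was at 0 in anti-CD71 replicate 2, while 7 and 5 were at 0 in the controls. Over the 5 markers listed for all 4 libraries the sums were 17.44 and 12.54 TPM in anti-CD71 tumours against 7.97 and 11.08 TPM in controls. Of these sums Stfa2l1 held 10.4 and 10.7 TPM in anti-CD71 tumours and 0 in controls. Ctsg held 6.53 and 1.16 TPM in anti-CD71 tumours against 7.33 and 10.21 TPM in controls. Without Stfa2l1 both treated sums lay below both control sums. Chosen after their values were seen, other neutrophil markers differed in direction. Retnlg, a marker of mature neutrophils, was listed at 17.34 TPM in anti-CD71 replicate 2 and at 0 in both controls. Mmp9, a granule protease gene, had 59.62 TPM in anti-CD71 replicate 2 against 51.94 and 76.33 TPM in the controls, and Padi4 had 40.82 TPM against 39.79 and 46.32 TPM, so that both lay between the controls. Trem1 lay below both controls, at 4.46 TPM in anti-CD71 replicate 2 against 6.22 and 4.99 TPM. Of the 10 tested markers 6 lay above 0 and 4 below. Mpo, Elane and Prtn3, defining genes of immature neutrophils, were at most 0.64 TPM in every library that listed them. What part neutrophil number has in the levels of Cxcr2, Csf3r and the ligands was not tested. Over 4 libraries the neutrophil gene Stfa2l1 had 10.4 and 10.7 TPM in the anti-CD71 libraries and 0 in both controls. Stfa2l1 met the filter through the treated libraries alone, so its values are given as a description with no test. Ctsg did not pass over 4 libraries (-1.26, adjusted p = 0.219 by limma).

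The epidermal list summed to 116.27 TPM in anti-CD71 replicate 2, against 1.79 and 2.09 TPM in the controls. All 14 epidermal markers were above 0 in anti-CD71 replicate 2, while 11 and 9 were at 0 in the controls. Sbsn was the 1 tested and rose (log2 difference 1.71, adjusted p = 0.0249). Of these markers Dsg1a and Lce1a1 were listed for all 4 libraries, at 0 in anti-CD71 replicate 1, at 2.58 and 1.15 TPM in anti-CD71 replicate 2 and at 0 in both controls. The part of epidermal RNA in the levels of the chemokine and G-CSF genes was not tested.

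Macrophage markers summed to 3947.48 TPM in anti-CD71 replicate 2 against 7364.0 and 9381.37 TPM in the controls, with 8 of 12 tested genes lower and 0 at 0 in any library, among them C1qb (-1.37), C1qc (-1.31), C1qa (-1.23) and Lyz2 (-1.09). Over 4 libraries Csf1r (-1.03) and Cd14 (-0.44) fell. T and NK cell markers summed to 19.15 TPM in anti-CD71 replicate 2 against 74.47 and 75.08 TPM in the controls, with Prf1 (-2.12), Ncr1 (-1.71) and Cd3g (-1.12) called of 7 tested. The 4-library comparison gave -1.31 for Ncr1 (adjusted p = 0.0554) and -0.87 for Cd3g (adjusted p = 0.0651), neither of which passed. Macrophages and lymphocytes express many of the integrin and CXCR2 signalling genes named above, and the part of these cells in those falls was not tested.

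The labelled tumour cell was checked by its keratins: Krt8 stood at 1255.9 TPM in anti-CD71 replicate 2 against 1132.27 and 1202.77 TPM in the controls (log2 difference 0.11, adjusted p = 0.355), while the squamous keratins Krt5 and Krt14 were at 31.4 and 36.37 TPM in anti-CD71 replicate 2 and at most 0.1 TPM in the controls. Fibroblast markers summed to 785.45 TPM in anti-CD71 replicate 2 against 869.38 and 1212.17 TPM in the controls, with Pdgfra lower (-0.64, adjusted p = 0.0321) among 8 tested. Endothelial markers summed to 70.7 TPM against 78.11 and 80.25 TPM, with 0 of 6 called by limma. Carcinoma epithelium markers summed to 2275.49 TPM against 1930.32 and 2020.31 TPM, with Krt18 higher (0.42, adjusted p = 0.0438) among 5 tested. The mast cell and basophil list had 166.28 TPM against 104.59 and 51.86 TPM with 0 of 7 called, and the platelet list had 189.88 TPM against 125.55 and 105.23 TPM, nearly all of it Pf4, with 0 of 1 called.

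**Figure D5:**
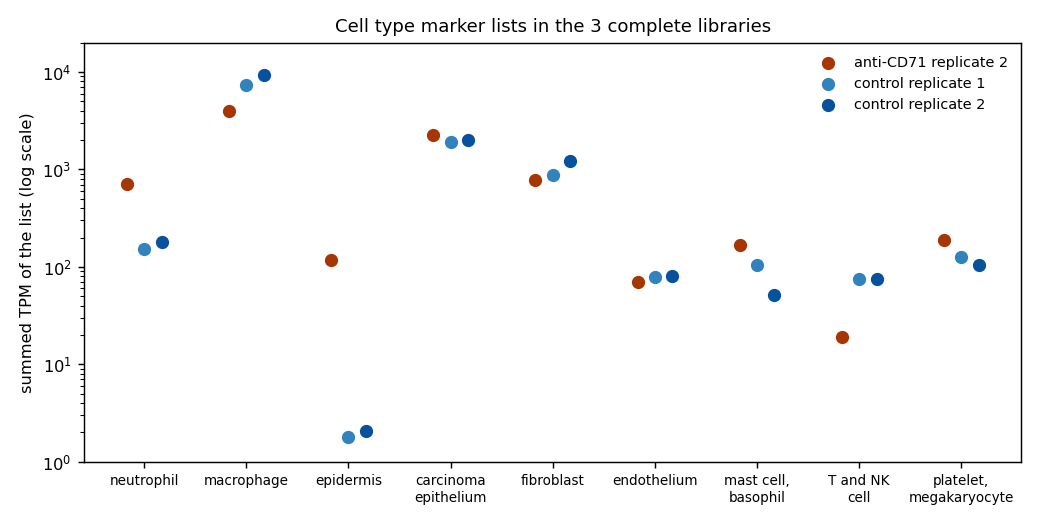
Summed TPM of each cell type marker list on a log scale in anti-CD71 replicate 2 and both controls. The treated point stands highest above the controls for the epidermal list, at 116.27 TPM against 1.79 and 2.09 TPM, and lowest below them for the T and NK cell list, at 19.15 TPM against 74.47 and 75.08 TPM.

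Genes whose pattern over libraries was most like that of a ligand gene were sought by the Euclidean distance of centred log2(TPM + 1), over 12450 genes for 3 libraries. Nearest to Cxcl1 were the hair keratin genes Krt87 and Krt31 and the keratin-associated protein gene Krtap19-4 (distances 0.123, 0.134 and 0.139), and nearest to Cxcl3 were Krtap3-3, Sfn and Krt75 (0.0834, 0.139 and 0.165). Krt87 stood at 4.51 TPM in anti-CD71 replicate 2 against 0 and 0.04 TPM in the controls. Nearest to Cxcl2 were Cstdc4, Urah and Krtap19-3 (0.205, 0.399 and 0.615), to Cxcl5 Cd209g, Tmem45a and Il33 (0.116, 0.12 and 0.207), and to Csf3r Pus7l, Tipin and Bbs5 (0.0017, 0.00552 and 0.00889). These distances rest on 3 libraries, and for patterns set by 1 treated library they measure little beyond the size of its difference.

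Over all 4 libraries and 1622 genes the nearest to Cxcl2 were Ccl3, a CC chemokine gene, Stfa2l1, and Slpi, for an inhibitor of neutrophil proteases (0.807, 1.17 and 1.52). Like Cxcl2, Ccl3 was higher in anti-CD71 replicate 1 than in replicate 2, with 42.06 and 18.41 TPM in the anti-CD71 libraries against 4.51 and 4.71 TPM in the controls. Slpi had 15.5 and 10.07 TPM in the anti-CD71 libraries against 3.9 and 2.14 TPM in the controls. For Cxcl5 the nearest were Adm, Npy and Actg2 (0.465, 0.585 and 0.674), of which Adm, for the vasodilator adrenomedullin, had 45.63 and 44.41 TPM in the anti-CD71 libraries against 18.96 and 26.26 TPM in the controls.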

How the data were processed

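Libraries of tumour RNA were compared as TPM values per RefSeq transcript, as deposited by the authors. Per the submitters' processing notes, the reference was GRCm38.p6; how TPM was estimated is not given in the sources used here. Since TPM holds no read number, values carry no counting interval. A RefSeq gene table of that build, for C57BL/6J, matched 58425 of 59881 transcripts, and a gene's transcripts were added, transcripts listed under a second ID (1744) included. Anti-CD71 replicate 1 ends inside a line in the file used here, and that line was dropped. limma 3.58.1 in R 4.3.3 was run on log2(TPM + 1) with a trended variance prior. Genes needed at least 1 TPM in 2 libraries, and calls an adjusted p (Benjamini-Hochberg, all tested genes) under 0.05. Over 4 libraries a gene needed 90% of its TPM on transcripts listed for all. With 3 libraries, the spread comes from the controls alone and is taken to hold for the lone treated library. Across genes, log2 differences between the 2 anti-CD71 libraries had an SD of 0.294, and between the controls 0.222. The scripts were tested on simulated data. The labels do not say whether replicate numbers pair the libraries.

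The 7 genes and the lists were chosen with earlier results of these data known. Named were genes called in a list (up to 6, or 4 for cell type markers), the 2 with the highest mean TPM, the 3 nearest in pattern to a member with a mean of at least 1 TPM, and neighbours on the chromosome. Some genes that this rule names are not reported here. Further genes belong to the marker checks or are said in the text to be chosen after their values were seen. Alternatives were a pseudocount of 0.1 TPM, other filters, median scaling, no trend, 50% in place of 90%, a replicate block and leaving out libraries.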

Additional observations from a re-analysis of the deposited data

How the results depend on the processing

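The differences of Cxcl1, Cxcl2, Cxcl3, Cxcl5, Csf3 and Cxcr2 kept their direction under every alternative run, and ranged from 2.44 to 2.63 for Cxcl1, 1.91 to 3.18 for Cxcl2, 2.39 to 3.15 for Cxcl3, 0.57 to 2.66 for Cxcl5, 1.59 to 3.31 for Csf3 and 1.12 to 2.88 for Cxcr2. For these genes every treated value lay above both controls, so changing the pseudocount or leaving out a library could not turn the direction. For Cxcl1, Cxcl3 and Csf3 every run used the same treated library. The kept direction is therefore no added support. The difference of Csf3r turned to -0.14 on the transcripts shared by 4 libraries and to -0.3 on them without anti-CD71 replicate 2. The cause was not tested. Other reversals were Csf1 over 3 libraries (0.02 with median scaling) and Fpr2 over 4 (-0.01 without control replicate 1 and -0.07 without anti-CD71 replicate 1, with 0.34 the highest when leaving out 1 library).

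Over 4 libraries limma called 13 genes higher and 54 lower. The counts were 1 and 7 with 1 TPM in 1 library, 1 and 0 with no filter (435 at an unadjusted p under 0.05), 1 and 3 without the trend, and 21 higher and 36 lower with median scaling. With the replicate block they were 2 and 1, with 0 pathway genes lower. The deviations of same-numbered libraries had a correlation of -0.006. With 2 libraries a group, that value cannot decide whether the numbers pair the libraries. Leaving out 1 library gave 1 to 35 higher and 0 to 61 lower, with 0 to 5 pathway genes lower and 0 higher. Of the 4 pathway genes lower, the count was 1 with 1 TPM in 1 library, 0 with no filter and 0 without the trend. Over 3 libraries, 57 were called higher and 286 lower. The counts were 60 and 12 with 1 TPM in 1 library, 256 and 6 with no filter, 38 and 187 with median scaling, and 13 and 22 without the trend. Pathway genes, 2 higher and 16 lower, were 0 and 0 with either other filter, 2 and 10 with median scaling and 2 and 0 without the trend. The cause was not tested. Leaving out a control here leaves 1 library a group, so no calls can be made. The depth behind low values such as those of Csf3, Cxcl5 and Cxcr2 is unknown.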
